A study of Mus musculus with 33 samples.

Results

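Expression of 9 genes was followed in mouse liver. They were the acyl-CoA dehydrogenase genes Acadvl, Acadl, Acadm, Acads, Acadsb and Acad11, and the electron transfer genes Etfa, Etfb and Etfdh. They were found by gene symbol in the platform annotation, which assigns them 12 of the 45101 probe sets in the deposited table. Of these 12, 10 passed a filter on dim probe sets (10 or more arrays at a log2 value of 4 or above), and all 9 genes kept a probe set among the 9005 genes tested. The livers came from 33 male C57BL/6J mice aged 17 weeks, with 1 Affymetrix expression array per mouse. For 2 weeks, 12 mice ate a diet with sunflower oil (7% of energy) to which 0.03% (w/w) fenofibrate had been added, 11 ate the diet with fish oil (7% of energy, with 23.1% EPA and 21.1% DHA) in place of the sunflower oil, and 10 controls ate the sunflower oil diet alone. That oil contained 81.3% oleic acid. Food was withheld between 7:00 and 13:00 before the livers were taken, so all 3 groups were measured in the fasted state, and mice were housed 2 per cage. The purpose was to set the drug beside the oil. The fenofibrate and fish oil groups thus differed in both drug and oil. Fenofibrate lowers blood lipids by activating PPARα, a nuclear receptor for fatty acids. Fewer cells of a type and less RNA per cell cannot be told apart in such whole-liver RNA.

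Acyl-CoA dehydrogenases carry out the first step of each round of mitochondrial beta-oxidation. They remove a pair of hydrogens from the acyl-CoA and pass the electrons to FAD, and each enzyme works best on a range of chain lengths. The electrons then move to the electron transfer flavoprotein, a dimer of the Etfa and Etfb products, and from there through the Etfdh product, a dehydrogenase of the inner mitochondrial membrane, to ubiquinone. In liver this pathway supplies energy and acetyl-CoA for ketone bodies during fasting, and several of its genes, Acadm among them, are known targets of PPARα.

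The promoters of 4 of the genes are shown because the results separate Acadsb from the others, and because Acadvl, Acadm and Etfa were the genes whose window matched a motif of PPARα and related receptors. Each window runs from 250 bases before to 50 bases after the annotated start in RefSeq (GRCm38.p6), written 5′ to 3′ on the strand of the gene, and all 9 genes matched 1 window. Capitals mark matches, on either strand, to the hexamer AGGTCA or to 2 such hexamers in direct repeat with 1 base between them, with at most 2 mismatches in the repeat.
Acadvl, chr11:70015379-70015678, minus strand: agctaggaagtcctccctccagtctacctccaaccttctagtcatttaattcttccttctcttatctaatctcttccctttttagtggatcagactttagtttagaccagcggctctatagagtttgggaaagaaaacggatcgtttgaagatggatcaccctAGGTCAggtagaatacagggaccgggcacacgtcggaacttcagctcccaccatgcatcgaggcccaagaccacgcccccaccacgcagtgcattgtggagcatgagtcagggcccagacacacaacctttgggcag
Acadm, chr3:153944594-153944893, minus strand: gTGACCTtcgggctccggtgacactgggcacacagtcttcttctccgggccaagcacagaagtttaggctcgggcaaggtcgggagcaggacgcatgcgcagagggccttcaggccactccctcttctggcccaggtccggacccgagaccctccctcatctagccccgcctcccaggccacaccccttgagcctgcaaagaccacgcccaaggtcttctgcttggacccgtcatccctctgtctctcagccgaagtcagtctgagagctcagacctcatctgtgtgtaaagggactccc
Etfa, chr9:55512194-55512493, minus strand: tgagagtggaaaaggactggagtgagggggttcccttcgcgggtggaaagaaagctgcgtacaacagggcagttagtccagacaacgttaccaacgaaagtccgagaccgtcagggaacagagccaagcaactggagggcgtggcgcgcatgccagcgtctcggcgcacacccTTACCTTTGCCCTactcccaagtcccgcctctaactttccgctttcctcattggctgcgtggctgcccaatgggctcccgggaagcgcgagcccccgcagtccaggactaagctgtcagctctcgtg
Acadsb, chr7:131410351-131410650, plus strand: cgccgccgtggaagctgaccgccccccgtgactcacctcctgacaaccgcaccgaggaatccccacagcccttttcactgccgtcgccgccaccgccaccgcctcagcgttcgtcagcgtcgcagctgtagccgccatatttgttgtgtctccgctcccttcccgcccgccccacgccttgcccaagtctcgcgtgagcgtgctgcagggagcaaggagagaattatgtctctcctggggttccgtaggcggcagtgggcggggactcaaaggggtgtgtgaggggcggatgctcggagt
The spaced repeat was found in 1 of the 9 windows, that of Etfa (2 mismatches, positions -77 to -65 from the start), and in 3.86% of 32851 promoter windows of the annotation. The exact hexamer was found in 2 of the 9, those of Acadvl and Acadm, against 16.3% of all windows; the hexamer is also part of the repeat. Also searched on both strands were TCAAGGTCA with at most 1 mismatch (0 of 9 windows, 7.46% of all), GGGCGG (6 of 9, 35.7% of all) and CCAAT (4 of 9, 37.4% of all). These matches describe letters in the windows and are no evidence of binding. The other 6 windows, those of Acadl, Acads, Acadsb, Acad11, Etfb and Etfdh, held neither the hexamer nor the repeat.

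All values below are the deposited log2 expression values, differences are between diet means with the standard error (SE) of a limma model of all 33 arrays, and a call means an adjusted p under 0.05 (Benjamini-Hochberg over the 9005 genes). Array medians over all probe sets were 2.90 to 2.97. P-values measure the spread between these mice, whose cage mates are not given. No label names a batch. Deviations of arrays with consecutive label numbers in a diet had a median correlation across genes of 0.14 (16 pairs). For 150 other pairs of one diet it was -0.13. Deviations from a diet mean cancel within the diet, which by itself makes such correlations tend to be negative. The lowest array weights were those of control replicate 1 (0.292), fish oil replicate 9 (0.326), control replicate 2 (0.379) and control replicate 9 (0.426). Counts are also given without the 3 controls; without fish oil replicate 9 the counts of the 9 genes called were as with all arrays. The highest value of any of the 12 probe sets was 13.24, against 15.6 in the table.

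On fenofibrate 8 of the 9 genes rose and 1, Acadsb, fell. Of all genes tested, 40.8% were called in that comparison, 22% higher and 18.9% lower. The median difference of the 9 was 0.59, against -0.00 over all genes. Without control replicates 1, 2 and 9 again 8 were called higher and 1 lower. On fish oil 8 of the 9 rose against control, 0 fell, and Acadsb did not pass the test, where 14.5% of all genes were called, 7.53% higher and 7% lower. The median was 0.27, against 0.01 over all genes, and without the 3 control arrays named above 7 were called higher and 0 lower. Between the treatments, fenofibrate against fish oil, 7 were higher on fenofibrate, Acadsb was lower, and Etfa did not pass (38.9% of all genes called, 19.8% higher and 19.1% lower). That median was also 0.27, against -0.01 over all genes. The comparisons with control share the 10 control livers, so their results are not independent of each other.

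**Figure D1:**
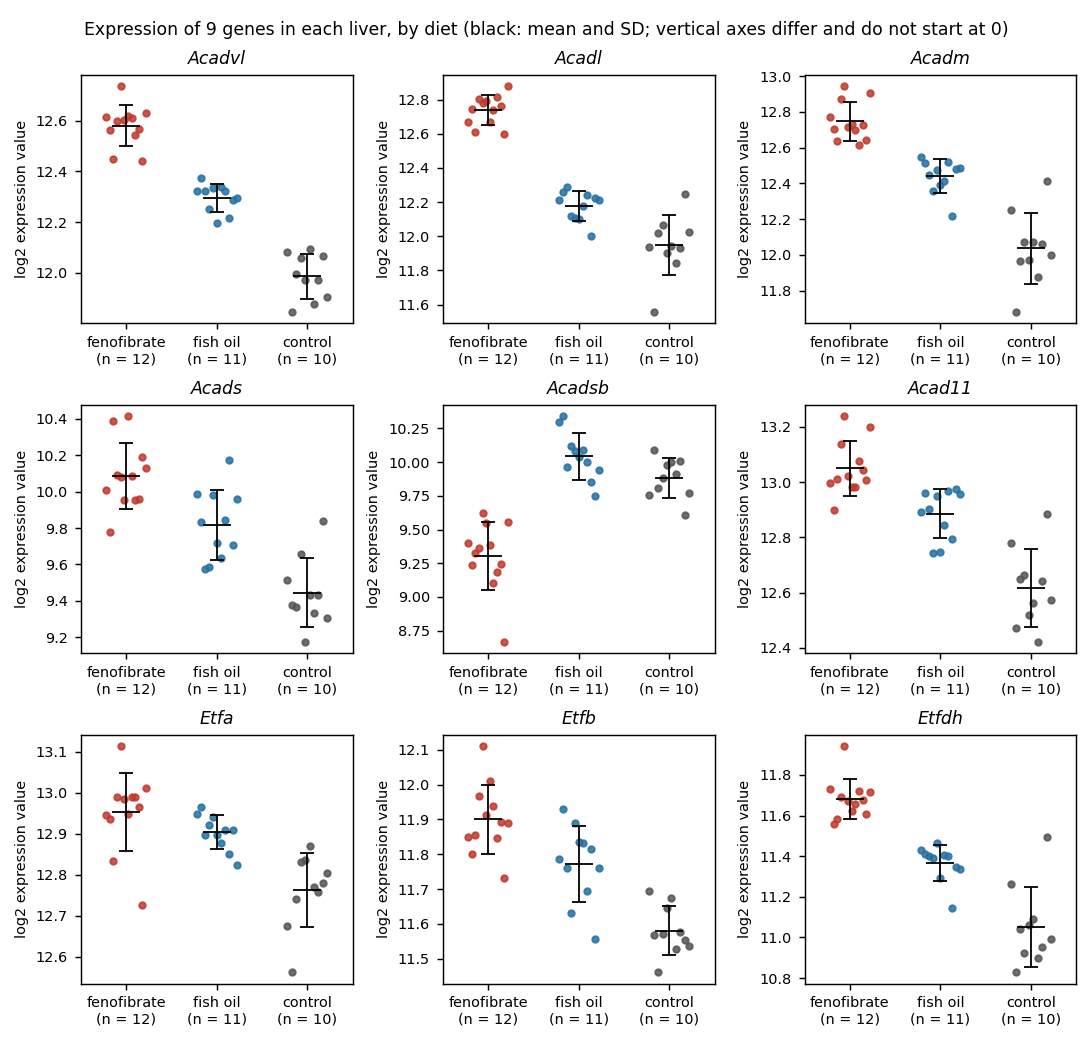
Log2 expression value (vertical axes, each with its own range) of the 9 genes in each liver, for fenofibrate (n = 12), fish oil (n = 11) and control (n = 10); points are livers, black lines the mean and SD. In 8 of 9 panels the means step down across the 3 diets from left to right, while Acadsb lies lowest on fenofibrate.

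Acadl, whose product acts on long-chain acyl-CoAs, had the largest difference on fenofibrate. Its values (lowest, median and highest log2) were 12.60, 12.76 and 12.88 on fenofibrate, 12.00, 12.21 and 12.29 on fish oil, and 11.56, 11.94 and 12.25 in controls. Every fenofibrate liver lay above every fish oil and control liver, while fish oil and control livers overlapped, with 2 of 11 fish oil livers above the highest control. Acadl rose on fenofibrate by 0.79 ± 0.05 (1.73-fold, limma adjusted p = 1.09e-13) and on fish oil by 0.23 ± 0.06 (1.17-fold, adjusted p = 0.00386). It was 0.56 ± 0.05 higher on fenofibrate than on fish oil (adjusted p = 1.84e-10).

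Acadvl encodes the very-long-chain enzyme, which is bound to the inner mitochondrial membrane. Its log2 values were 12.44, 12.60 and 12.74 on fenofibrate, 12.20, 12.32 and 12.37 on fish oil, and 11.85, 11.98 and 12.09 in controls. The 3 diets did not overlap at all for this gene. It was the only one of the 9 for which fish oil and control livers were fully separated, with fish oil higher, as they were for 0.378% of all genes in that direction, 0.677% in the other and 1.05% in either. The differences were 0.59 ± 0.04 on fenofibrate (1.51-fold, limma adjusted p = 2.68e-14), 0.31 ± 0.04 on fish oil (1.24-fold, adjusted p = 4.47e-07) and 0.29 ± 0.04 for fenofibrate against fish oil (adjusted p = 1.67e-07). Its pooled SD within diets, 0.0757, stood at percentile 2.12 of all genes, whose median SD was 0.202.

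Acadm, the medium-chain dehydrogenase gene, had log2 values of 12.61, 12.72 and 12.95 on fenofibrate, 12.22, 12.47 and 12.55 on fish oil, and 11.68, 12.03 and 12.41 in controls. Fenofibrate livers were above all others, and 7 of 11 fish oil livers exceeded the highest control, which was replicate 9. Acadm rose by 0.71 ± 0.06 on fenofibrate (1.64-fold, limma adjusted p = 2.07e-11) and by 0.40 ± 0.06 on fish oil (1.32-fold, adjusted p = 1.49e-05), the largest difference of the 9 on fish oil. The difference between the treatments was 0.31 ± 0.06 (adjusted p = 8.96e-05).

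Acads, the short-chain dehydrogenase gene, was more variable, with a pooled SD of 0.188. Its log2 values were 9.78, 10.09 and 10.42 on fenofibrate, 9.57, 9.83 and 10.17 on fish oil, and 9.17, 9.40 and 9.84 in controls. All diets overlapped, although 11 of 12 fenofibrate livers lay above the highest control. It rose by 0.64 ± 0.08 on fenofibrate (1.56-fold, limma adjusted p = 6.59e-08) and by 0.38 ± 0.08 on fish oil (1.30-fold, adjusted p = 0.00139), and was 0.27 ± 0.08 higher on fenofibrate than on fish oil (adjusted p = 0.00639).

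Acad11, a dehydrogenase of longer acyl-CoAs that also carries a kinase-like domain, is measured by 2 probe sets past the filter. On the brighter one the log2 values were 12.90, 13.02 and 13.24 on fenofibrate, 12.74, 12.90 and 12.97 on fish oil, and 12.42, 12.61 and 12.88 in controls. Fenofibrate livers lay above all controls, and fish oil livers overlapped with both other diets. Acad11 rose by 0.43 ± 0.05 on fenofibrate (1.35-fold, limma adjusted p = 1.64e-08) and by 0.27 ± 0.05 on fish oil (1.20-fold, adjusted p = 2.94e-04), with 0.16 ± 0.05 between the treatments (adjusted p = 0.00748). The other probe set gave 0.51 ± 0.05, 0.31 ± 0.05 and 0.19 ± 0.05 for these comparisons when all 17162 probe sets past the filter were tested, and each was called.

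Acadsb encodes the short/branched-chain enzyme, which acts in the breakdown of isoleucine, and it was the exception. Its log2 values were 8.66, 9.35 and 9.62 on fenofibrate, 9.75, 10.04 and 10.34 on fish oil, and 9.61, 9.90 and 10.09 in controls. Every fenofibrate liver lay below every fish oil liver, and 11 of 12 lay below the lowest control. Acadsb fell by 0.58 ± 0.09 on fenofibrate (0.670 of the control level, limma adjusted p = 1.48e-06) and was lower on fenofibrate than on fish oil by a log2 difference of -0.74 ± 0.08 (0.598 of the fish oil level, adjusted p = 9.11e-09). On fish oil the difference from control was 0.16 ± 0.09 (95% confidence interval -0.01 to 0.34, adjusted p = 0.226). Fenofibrate replicate 11 was the lowest of all livers for Acadsb, and without it the fenofibrate difference was -0.52. Acadsb rests on a single probe set of the x_at type, whose probes can also bind related transcripts.

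Of the electron transfer genes, Etfdh differed most between diets. Its product hands the electrons on to ubiquinone. Its log2 values were 11.56, 11.67 and 11.94 on fenofibrate, 11.15, 11.40 and 11.47 on fish oil, and 10.83, 11.01 and 11.50 in controls. All fenofibrate livers lay above all others, but control replicate 9 lay above every fish oil liver. Etfdh rose by 0.63 ± 0.06 on fenofibrate (1.55-fold, limma adjusted p = 1.85e-10) and by 0.31 ± 0.06 on fish oil (1.24-fold, adjusted p = 3.34e-04), and the treatments differed by 0.32 ± 0.06 (adjusted p = 3.97e-05).

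Etfb, for the smaller subunit of the flavoprotein, had log2 values of 11.73, 11.89 and 12.11 on fenofibrate, 11.56, 11.79 and 11.93 on fish oil, and 11.46, 11.57 and 11.69 in controls. Fenofibrate livers were separate from controls, and 9 of 11 fish oil livers exceeded the highest control. It rose by 0.32 ± 0.04 on fenofibrate (1.25-fold, limma adjusted p = 6.60e-07) and by 0.19 ± 0.05 on fish oil (1.14-fold, adjusted p = 0.00375). The difference between the treatments, 0.13 ± 0.04, was called (adjusted p = 0.0199), and lost the call when the tested genes were quantile normalized again (adjusted p = 0.0561, the highest over its alternatives).

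Etfa, for the larger subunit, changed least among the genes that rose. Its log2 values were 12.73, 12.98 and 13.11 on fenofibrate, 12.82, 12.91 and 12.97 on fish oil, and 12.56, 12.77 and 12.87 in controls. Of the treated livers, 10 of 12 on fenofibrate and 9 of 11 on fish oil lay above the highest control. The rises were 0.19 ± 0.04 on fenofibrate (1.14-fold, limma adjusted p = 2.09e-04) and 0.14 ± 0.04 on fish oil (1.10-fold, adjusted p = 0.0148). Without control replicates 1, 2 and 9 the fish oil difference was 0.10 and was no longer called (adjusted p = 0.0838, the highest over its alternatives). Fenofibrate and fish oil livers were not told apart for Etfa (0.05 ± 0.04, 95% confidence interval -0.03 to 0.13, adjusted p = 0.329). The remaining 2 of the 12 probe sets, one of Acadl and one of Etfdh, reached the filter level on 0 of 33 arrays and were not tested. Their means were 2.33, 2.19 and 2.11 for Acadl and 3.41, 3.48 and 3.07 for Etfdh, on fenofibrate, on fish oil and in controls.

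**Figure D2:**
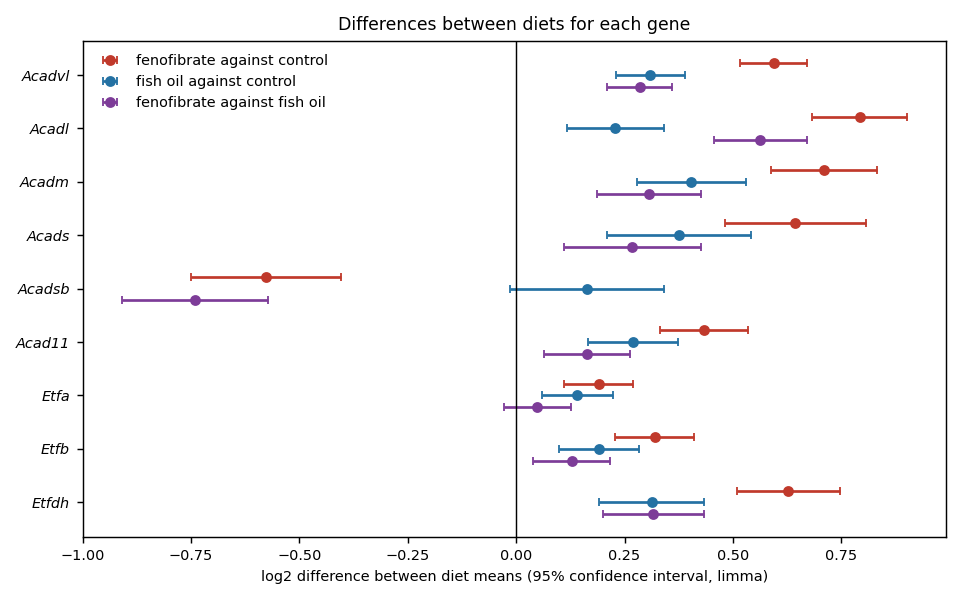
Log2 difference between diet means (horizontal axis) with the 95% confidence interval from limma, for the 9 genes (rows) and the 3 comparisons (colours). Acadsb is the only gene left of 0 for fenofibrate, at -0.58 against control and -0.74 against fish oil, and its interval for fish oil against control, like that of Etfa between the treatments, includes 0.

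For 6 of the 9 genes the fenofibrate and control livers did not overlap, in each case with fenofibrate higher, as was so for 3.58% of all genes (1.83% with fenofibrate lower, 5.41% in either direction). For fenofibrate against fish oil 5 of 9 did not overlap, 4 with fenofibrate higher (4.09% of all genes) and Acadsb with fenofibrate lower (2.25% of all genes, 6.34% in either direction). The 4 were Acadvl, Acadl, Acadm and Etfdh.

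Whether 2 genes changed by unequal amounts was tested on the difference between their log2 values in each liver, for 36 pairs and 3 comparisons, with a permutation test over livers (100000 resamples, two-sided) and adjustment over the 108 tests. Pairs share genes and livers, so the counts are not counts of independent findings. No counts for pairs of other genes are set beside them, so the counts cannot be read as a trait of the genes followed here. Each gene is also read by its own probe set, and probe sets can respond unequally to the same change. The 2 probe sets of Acad11 gave 0.43 and 0.51 for fenofibrate against control, so small differences between genes may lie in the probe sets. For fenofibrate against control 28 of 36 pairs differed. Acadsb differed from each of the other 8 genes (adjusted permutation p = 3.6e-05 for all, the smallest these permutations can give in this set), by 0.77 against Etfa to 1.37 ± 0.12 against Acadl. Acadl rose more than Acadvl by 0.20 ± 0.05 on the log2 scale in the same comparison (adjusted permutation p = 8.836e-04), more than Etfdh by 0.16 ± 0.05 (adjusted permutation p = 0.0121), and more than Acad11, Etfa and Etfb. No difference was found between Acadl and Acadm (0.08 ± 0.04, adjusted permutation p = 0.112).

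Within the electron transfer chain the rises on fenofibrate were graded. Etfdh rose more than Etfb by 0.31 ± 0.06 (adjusted permutation p = 5.13e-04) and more than Etfa by 0.44 ± 0.07 (adjusted permutation p = 9.257e-05). Etfb in turn rose more than Etfa, its partner in the dimer, by 0.13 ± 0.04 (adjusted permutation p = 0.00737). On fish oil against control Etfa and Etfb did not differ detectably (-0.05 ± 0.05 for Etfa minus Etfb, adjusted permutation p = 0.377), and Etfdh rose more than Etfa by 0.17 ± 0.07 (adjusted permutation p = 0.0302).

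For fish oil against control 9 of 36 pairs differed, and 20 did without control replicates 1, 2 and 9. Acadm took part in 5 of these 9. It rose more than Acadl by 0.17 ± 0.04 on fish oil (adjusted permutation p = 5.53e-04), although the 2 genes were not told apart on fenofibrate. Acadsb took part in 0 of the 9. For fenofibrate against fish oil 26 of 36 pairs differed, and Acadl and Acadsb each differed from all 8 others there. Acadl exceeded Acadm by 0.26 ± 0.03 in that comparison (adjusted permutation p = 6.545e-05), and exceeded Acadvl by 0.28 ± 0.03 (adjusted permutation p = 3.6e-05).

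**Figure D3:**
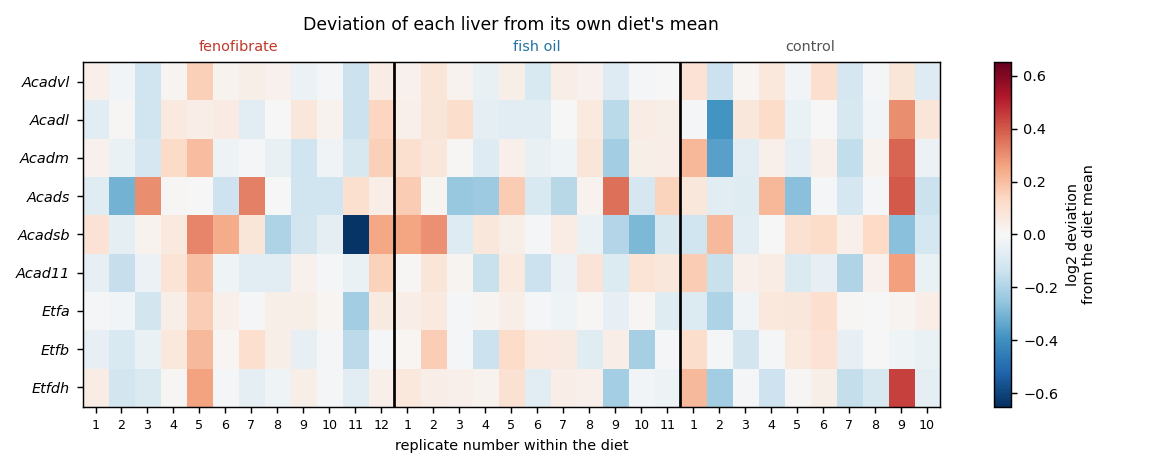
Deviation of each liver's log2 value from the mean of its own diet (colour scale) for the 9 genes (rows) in 12 fenofibrate, 11 fish oil and 10 control livers (columns, by replicate number). Control replicate 9 stands out in red for Acadl, Acadm, Acads and Etfdh and in blue for Acadsb, and fenofibrate replicate 11 in dark blue for Acadsb (-0.64).

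The livers of one diet also differed among themselves. After the diet means were removed, the correlation between 2 of the 9 genes over the 33 livers had a median of 0.39 over the 36 pairs and a range of -0.16 to 0.84, and 32 pairs were positive. Without control replicates 1, 2 and 9 the median was 0.52 and the range -0.30 to 0.75, and 31 pairs were positive. These are descriptions over livers that share diets and may share array runs, which no label names. No values for pairs of other genes are set beside them. Acadm and Etfdh were the most alike (r = 0.84, and 0.67 over the 30 livers left without control replicates 1, 2 and 9), followed by Acadm and Acad11 (r = 0.83 and 0.75). Acads stood apart: its correlations with the other genes ran from -0.16 with Etfa to 0.39 with Acad11. For Acadsb the correlations with Etfb (r = 0.54 and 0.62) and Etfa (r = 0.49 and 0.70) were high with and without those controls. With Acadm (r = 0.08 and 0.54), Etfdh (r = 0.04 and 0.49) and Acadl (r = -0.04 and 0.29) they were near 0 over all livers and higher without them.

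Some livers deviated in several genes at once. In control replicate 9 Etfdh, Acads, Acadm and Acadl lay above the control mean, by up to 0.44, and Acadsb lay 0.27 below it. In control replicate 2 the sign was turned, with Acadl at -0.39, Acadm at -0.36 and Acadsb at 0.21 relative to the control mean. Fenofibrate replicate 5 lay above the fenofibrate mean for 8 of the 9 genes, fenofibrate replicate 4 did so for 9 of 9, and fish oil replicates 1 and 2 lay above the fish oil mean for 9 of 9.

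Among the 8996 other genes, those whose deviations were most like those of Acadm were Rtf2 (r = 0.88), Mmd (0.88) and Aldh3a2 (0.86), over the 33 livers. Without control replicates 1, 2 and 9 these were 0.75, 0.75 and 0.70. Rtf2 was also among the 3 genes most like Etfdh (r = 0.89, and 0.79 without those controls) and Acadvl (0.78 and 0.78). Mmd was the gene most like Acadvl (0.80 and 0.80). For Acadl they were Qpct (r = 0.87), Khdrbs3 (0.87) and Abhd6 (0.82), with 0.74, 0.69 and 0.64 without control replicates 1, 2 and 9. Acad11 was most like Hadha, the alpha subunit of the trifunctional protein of beta-oxidation (r = 0.85), the carnitine transporter gene Slc22a5 (0.83) and the carnitine palmitoyltransferase gene Cpt2 (0.81). Without control replicates 1, 2 and 9 its values were 0.78, 0.79 and 0.69. For Etfdh the carnitine acetyltransferase gene Crat (0.82) and the dienoyl-CoA reductase gene Decr1 (0.82) came next, with 0.59 and 0.75 without those controls.

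Acadsb was most like Sae1 (r = 0.75), Eif2s3y (0.75) and the transporter gene Slc22a30 (0.74), Etfb like the proteasome assembly factor gene Pomp (0.83), and Etfa like Gimap8 (0.80). Acads was most like Sympk, with the lowest leading correlation of the 9 genes (r = 0.68).

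Genes around these steps were counted from gene lists. Over all genes, 22% were called higher and 18.9% lower on fenofibrate, and 7.53% and 7% on fish oil. For fenofibrate against fish oil the shares were 19.8% and 19.1%. Of 9 other dehydrogenases that also deliver electrons to the flavoprotein, 4 rose and 2 fell on fenofibrate, with a median difference of 0.15. Acad10 (0.90 ± 0.18) and Acad9 (0.38 ± 0.07) were among those that rose. Acad12, also counted, reached the filter level of 4 in 11 of 12 fenofibrate, 0 of 11 fish oil and 1 of 10 control livers (means 4.58, 3.54 and 3.59). It passed the filter through the fenofibrate livers, so it had to differ and its calls against control and fish oil support nothing. Sardh, which oxidises sarcosine, fell by 0.28 ± 0.07 on fenofibrate and rose by 0.31 ± 0.07 on fish oil, and differed by -0.59 ± 0.06 between the treatments (limma adjusted p = 4.15e-09). In that list 3 rose and 0 fell on fish oil, with Gcdh, the glutaryl-CoA dehydrogenase gene, at 0.31 ± 0.06, and 3 were higher and 3 lower on fenofibrate than on fish oil. Of 5 measured genes that serve the flavoprotein or supply FAD, 3 rose on fenofibrate, namely Etfrf1, a regulator of the flavoprotein (0.46 ± 0.06), the riboflavin kinase gene Rfk (0.25 ± 0.05) and the FAD synthase gene Flad1 (0.21 ± 0.06). Of those 5, 0 were called on fish oil, and the same 3 genes were higher on fenofibrate than on fish oil.

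Upstream, in the carnitine shuttle and acyl-CoA entry, 8 of 10 genes rose and 1 fell on fenofibrate, against 5 higher and 4 lower on fish oil. Between the treatments 8 were higher and 1 lower on fenofibrate. Of all genes, 40.8%, 14.5% and 38.9% were called in these comparisons, in either direction. The carnitine-acylcarnitine carrier gene Slc25a20 rose by 0.76 ± 0.07 on fenofibrate, while Cpt1a, which controls entry of long-chain acyl groups, did not pass there (-0.07 ± 0.07) and fell by 0.34 ± 0.07 on fish oil. The acyl-CoA synthetase gene Acsl5 rose by 0.63 ± 0.07 on fenofibrate and fell by 0.56 ± 0.07 on fish oil. Downstream, 9 of 10 later enzymes of mitochondrial beta-oxidation rose on fenofibrate and 7 on fish oil, with 0 lower in either, and 8 were higher on fenofibrate than on fish oil. Their medians, 0.63 and 0.29 against control, lay beside 0.59 and 0.27 for the 9 genes. Hadha rose by 0.82 ± 0.06 and 0.35 ± 0.06 on fenofibrate and on fish oil.

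**Figure D4:**
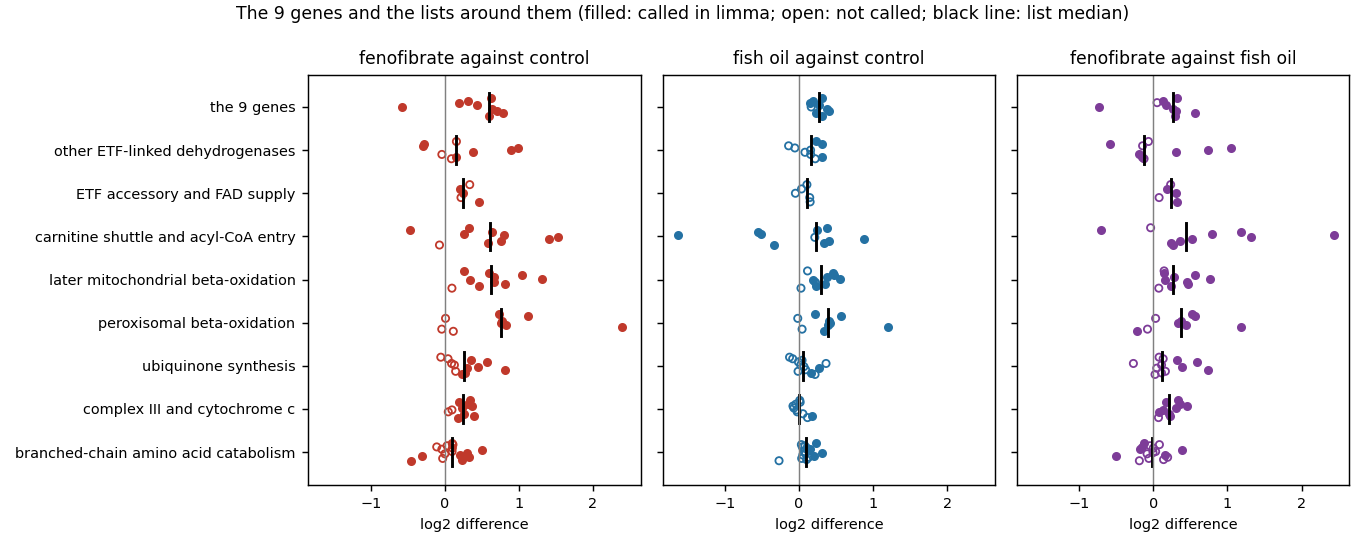
Log2 difference (horizontal axis) of each gene in the 9-gene set and in 8 surrounding lists (rows) for the 3 comparisons (panels); filled points were called in limma, open points were not, and black lines are list medians. On fenofibrate the medians of the oxidation lists lie right of 0 (0.59 for the 9 genes, 0.75 for the peroxisomal list), and branched-chain amino acid catabolism has a median of 0.10.

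In the peroxisome, which shortens very-long-chain fatty acids by a beta-oxidation pathway of its own, 6 of 9 measured genes rose on fenofibrate and 7 on fish oil, with 0 lower, and between the treatments 6 were higher and 1 lower on fenofibrate. Ehhadh, the bifunctional enzyme gene, had the largest differences (2.39 ± 0.18 and 1.20 ± 0.18). Of the genes counted in ubiquinone synthesis, 7 of 12 rose on fenofibrate and 2 on fish oil. In complex III with cytochrome c, which carry the electrons of ubiquinone onward, 8 of 10 rose on fenofibrate and 1 on fish oil. Between the treatments 4 and 9 were higher on fenofibrate, and 0 were lower in any of these comparisons. Of all genes, 22% were called higher on fenofibrate, 7.53% on fish oil and 19.8% on fenofibrate against fish oil. Coq9 rose by 0.35 ± 0.05 and Uqcrc2 by 0.40 ± 0.04 on fenofibrate.

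Acadsb serves branched-chain amino acid catabolism. Of 16 genes of that pathway 5 rose and 2 fell on fenofibrate, where 22% of all genes were called higher and 18.9% lower. On fish oil 4 rose and 0 fell (7.53% and 7% of all genes), and 2 were higher and 4 lower on fenofibrate than on fish oil. Hibch, of valine breakdown, rose by 0.50 ± 0.06 on fenofibrate, while Dbt, a subunit of the branched-chain ketoacid dehydrogenase, fell by 0.31 ± 0.06 and was lower on fenofibrate than on fish oil by -0.51 ± 0.06. Ivd and Acad8, the dehydrogenases of leucine and valine breakdown, were at 0.09 ± 0.08 and -0.04 ± 0.06 on fenofibrate against control and were not called (chosen for naming after their values were seen). Against fish oil, Acad8 was lower on fenofibrate, like Acadsb, at -0.19 ± 0.06 (limma adjusted p = 0.00709). Ivd was at -0.13 ± 0.08 there and was not called. Of 11 regulators, 1 rose and 2 fell on fenofibrate, 1 rose and 1 fell on fish oil, and 1 was higher and 2 lower between the treatments. Over all genes, 40.8%, 14.5% and 38.9% were called in these comparisons, in either direction. Those called on fenofibrate were Pparg at 0.87 ± 0.15, Hnf4a at -0.42 ± 0.06 and Rxra at -0.36 ± 0.07. On fish oil they were Sirt3 at 0.21 ± 0.07 and Esrra at -0.23 ± 0.07. Ppara itself was at 0.01 ± 0.08 on fenofibrate and 0.04 ± 0.09 on fish oil and was not called.

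Defining markers of hepatocytes were bright in all livers, and all 10 passed the filter. On fenofibrate 8 of these 10 fell, and their summed level (log2 of the summed linear values) was 17.33 to 17.47 on fenofibrate, 17.46 to 17.58 on fish oil and 17.50 to 17.62 in controls. On fish oil 3 of 10 fell, and 6 of 10 were lower on fenofibrate than on fish oil. Over all genes, 18.9% were called lower on fenofibrate, 7% on fish oil and 19.1% on fenofibrate against fish oil. The same sums for other cell types were 12.78 to 13.84, 13.16 to 14.02 and 13.31 to a value just under the highest on fish oil for Kupffer cells, 12.02 to 12.33, 12.21 to 12.49 and 12.34 to 12.52 for stellate cells, and 11.82 to 12.07, 11.83 to 12.06 and 12.06 to 12.26 for sinusoidal endothelium, on fenofibrate, on fish oil and in controls. On fenofibrate 3 of 11 Kupffer cell, 4 of 7 stellate and 3 of 8 endothelial markers fell and 0, 1 and 1 rose. Of all genes, 18.9% were called lower and 22% higher there. On fish oil 3 endothelial markers fell and 0 of the Kupffer cell and stellate markers were called, against 7% of all genes lower and 7.53% higher. Cholangiocyte, lymphocyte, blood cell and adipocyte lists had 1, 1, 2 and 1 measured genes; the keratin genes Krt7 and Krt19, Cd3e, and Adipoq stayed below 4 in every liver. Of the measured ones, Ighm and Fabp4 rose and Alas2 fell on fenofibrate, and 0 were called on fish oil; these 3 were also called, in the same direction, on fenofibrate against fish oil. The part of cell makeup in the differences above was not tested.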

How the data were processed

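Liver RNA (5 µg, RNA integrity number above 8, per the labels' protocols) was measured on 33 arrays. Deposited values are on the log2 scale, 1 per probe set and array; per the submitters' processing notes the authors used GCRMA 2.24.1, which includes background correction and quantile normalization. Arrays give no depth; precision rests on how many there are. The sources used here give no genome build for the array values. The promoter windows are from RefSeq on GRCm38.p6.

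After 64 control probe sets were left out, probe sets with 1 gene symbol were used (symbols updated by gene identifier). Probe sets at log2 of at least 4 in at least 10 arrays were kept (17162), and the brightest stood for its gene, which gave 9005 genes. All were fitted in limma 3.58.1 (statmod 1.5.0, R 4.3.3; lmFit, eBayes, two-sided) over 3 diets, with Benjamini-Hochberg adjustment per comparison. No replicates were pooled.  The fit and the permutation tests were tested on simulated data.

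The 9 genes, lists, tests and alternatives were chosen with earlier results of these data known. Named list genes are up to 3 per list and comparison with the smallest adjusted p among those called, with Ppara, Cpt1a and Hadha always allowed (a further gene is not reported here); exceptions are stated. Likeness is Pearson's r of deviations from diet means. Alternatives changed the filter, scaling, probe set, variance model, array weights, blocks, arrays and test.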

Additional observations from a re-analysis of the deposited data

Results flagged for a closer look

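In the control group, where a single value can be tested for standing apart (10 arrays), 1 of the 12 probe sets was marked. The dim probe set of Etfdh was at a log2 value of 3.59 in control replicate 1, with a gap of 0.40 to the next control, against a range of 0.85 over all 10 (ratio 0.468). Chance alone marks about 1 in 20 such groups. This probe set lies below the filter level and enters no comparison. The fenofibrate and fish oil groups have more than 10 arrays and were not examined this way.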

How the results depend on the processing

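Of the differences of single genes under all alternatives, 987 kept their direction and their side of the threshold, 2 lost the call and 0 changed sign. Most alternatives share nearly all arrays, so the 987 are not independent checks. Changing the probe set could alter the difference of Acad11 alone among the 9 genes. The losses were Etfa for fish oil against control without control replicates 1, 2 and 9, and Etfb for fenofibrate against fish oil after a further quantile normalization, both given above. Acadsb for fish oil against control (0.16) passed in the permutation test over arrays, whose adjustment covered these genes alone and so is no match for the call over all genes. With each array left out in turn, the counts stayed at 8 higher and 1 lower for fenofibrate against control, 8 and 0 for fish oil against control, and 7 and 1 between the treatments, and the difference of Acadsb on fenofibrate ran from -0.61 to -0.52. Over all genes, 1308 were called for fish oil against control. That count ran up to 1956 with array weights, with 1587 without the arrays whose label number carries an A and 1554 without fish oil replicate 9, and down to 845 with neighbouring array label numbers taken as a random block (consensus correlation 0.23), under which the counts for the 9 genes were 8 and 0 again. Without control replicates 1, 2 and 9, 20 pairs of the 9 genes differed for fish oil against control, against 9 with all arrays; the cause was not tested. With the replicate number as a block the counts for the 9 genes were again 8 and 1, 8 and 0, and 7 and 1, and 3574, 1318 and 3467 genes were called, against 3676, 1308 and 3507. Correlations of deviations between same-numbered livers had medians of 0.01 (fenofibrate and control), 0.17 (fish oil and control) and -0.02 (fenofibrate and fish oil). Of these, 4 of 10, 6 of 10 and 2 of 11 were over 0.1. No reference was set beside these values, and whether the numbers pair livers was not tested. The main fit did not use them as pairs. The 2 dim probe sets are too near background to be tested.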
